A study of Rattus norvegicus with 17 samples.

Results

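Expression of 7 activity-induced immediate-early genes was examined in the rat hippocampus at 3 laboratories. The genes were Fos, Fosb, Junb, Egr1, Egr2, Nr4a1 and Arc, chosen by name and found by their Ensembl identifiers among the 32494 genes listed for each library. The rule used no measured value, though it was written with other results of these data known, and all 7 genes were above the filter on genes without expression. Hippocampal RNA-Seq libraries came from 5 rats at Site #1 (Legacy), 6 rats at Site #2 (Trinity) and 6 rats at Site #3 (UAB), with 1 library per rat and no experimental treatment. All animals were male SAS Sprague Dawley rats that were handled daily in the laboratory and killed by rapid decapitation without anesthesia, and the whole hippocampus was taken. At Sites #1 and #2 the rats came from Charles River, arrived at 8.3 weeks of age, were housed singly, were killed 18 to 19 days after arrival having last been weighed on the previous day, and were dissected in saline. At Site #3 the rats came from Harlan (Envigo), arrived at 8 weeks, were housed in pairs, were killed 27 days after arrival having been weighed on the day of sacrifice, and were dissected in bubbled artificial cerebrospinal fluid. The chow at the breeding site and in the laboratory also differed between Site #3 and the other sites. Each of these factors set Site #3 apart from both other laboratories, so their parts in any difference at Site #3 cannot be told apart. Whole tissue was sequenced, so a larger share of cells that express a gene and more RNA per cell cannot be told apart either.

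Immediate-early genes are transcribed within minutes of a stimulus, without new protein synthesis. In neurons, calcium entry through glutamate receptors and channels activates kinases that act on factors already bound at their promoters, among them serum response factor at CArG boxes and CREB at cAMP response elements. In the hippocampus these genes are known to respond to exploration, learning, stress, handling and seizures, and their transcripts decay quickly, which is why they are read as a record of the period before death. Fos, Fosb and Junb encode subunits of the AP-1 transcription factor. Egr1 and Egr2 encode zinc finger transcription factors, Nr4a1 encodes an orphan nuclear receptor, and Arc encodes a protein of dendrites and synapses that promotes the removal of AMPA receptors from the membrane.

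The values were the authors' normalized expression levels on a log2 scale, on which a difference of 1 is a doubling of the normalized value. The values hold no counts, so the number of reads behind each is not given by them. Medians over the 22664 genes tested lay between 7.48 and 7.59 in all libraries. The spread between libraries was compressed for the lowest genes, with a median within-site SD of 0.0027 where the mean level was below 0 (4187 genes), 0.099 where it was 6 to 7 (1077 genes) and 0.086 where it was at least 8 (10694 genes). The 7 genes had site means from 6.01 to 11.93. The normalization step is not given in the sources used here, and the compressed spread is a pattern of logs that are shrunken towards a gene's mean. Folds are therefore those of the deposited scale, and on a shrunken scale they would be smaller than folds of the counts, most of all for low genes such as Egr2. No pair of libraries held identical values.

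The 250 bases before the transcription start, from RefSeq on the GRCr8 assembly, are shown for Egr1, Egr2 and Nr4a1. They were chosen because, with Arc, they had the highest median correlation of the gene sets described below. Capitals mark CArG boxes and TGACG, the core of the cAMP response element, searched on both strands, so that CGTCA is the same core on the opposite strand. The sequences read 5′ to 3′ on the strand of the gene and lie at chr18:26736828-26737077 (plus strand), chr20:21054442-21054691 (minus strand) and chr7:134259888-134260137 (plus strand), in that order.
Egr1: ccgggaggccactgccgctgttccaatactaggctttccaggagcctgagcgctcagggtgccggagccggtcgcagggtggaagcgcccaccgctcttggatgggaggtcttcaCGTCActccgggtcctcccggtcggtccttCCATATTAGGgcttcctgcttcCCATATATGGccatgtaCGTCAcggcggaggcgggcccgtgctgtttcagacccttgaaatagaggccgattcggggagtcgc
Egr2: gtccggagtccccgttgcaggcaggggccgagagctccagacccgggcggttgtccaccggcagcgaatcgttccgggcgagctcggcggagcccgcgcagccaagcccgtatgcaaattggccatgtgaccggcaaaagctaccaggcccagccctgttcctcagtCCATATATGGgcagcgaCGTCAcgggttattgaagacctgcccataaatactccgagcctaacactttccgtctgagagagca
Nr4a1: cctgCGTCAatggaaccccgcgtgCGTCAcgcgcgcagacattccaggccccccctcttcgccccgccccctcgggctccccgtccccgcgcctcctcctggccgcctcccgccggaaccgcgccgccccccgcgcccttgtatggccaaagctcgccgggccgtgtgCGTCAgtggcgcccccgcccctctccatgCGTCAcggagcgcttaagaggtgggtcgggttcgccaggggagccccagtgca

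Counted back from the start, Egr1 held CArG boxes at -105 to -96 and -83 to -74, and Egr2 held 1 at -83 to -74. Each had a TGACG core at -66 to -62, so the inner CArG box and this core stood at the same distances from the start in both genes. Egr1 had another TGACG core at -135 to -131. Nr4a1 had no CArG box in this window and 4 TGACG cores, the nearest at -53 to -49. It also held a GCGNGGGCG site, the motif bound by EGR proteins, at -73 to -65, which is not capitalized. Junb held 1 TGACG core at -155 to -151 and 1 TATAAA at -49 to -44, both on the strand of the gene. Fosb held 1 TATAAA at -180 to -175, on the opposite strand, and no other motif searched. A CArG box was found in 1.5% of the 33465 promoter windows of this length, TGACG in 18.2%, GCGNGGGCG in 4.29% and TATAAA in 12.9%. The full TGACGTCA (in 1.59% of windows, each of which also holds TGACG) and the AP-1 motif TGANTCA (in 6.34%) were in none of these 5 windows. Sequence was matched by symbol for 5 of the 7 genes, and these matches describe letters only. Fos and Arc had no entry.

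All 7 genes had their highest site mean at Site #3. Site #1 and Site #2 shared vendor, single occupancy of cages and dissection buffer but not cage type, bedding or transit time. Between these sites 0 of the 7 genes passed the test, and so did 0% of all genes tested. At an unadjusted p under 0.05 the count was 3 of 7, with Egr1 and Nr4a1 higher and Fosb lower at Site #2, against 6.74% of all genes. Between Site #1 and Site #3, 0 of 7 passed, against 0.101% of all genes. All 7 had an unadjusted p under 0.05 in the direction of Site #3, a result found in 3.76% of all genes. For Fosb this depended on single libraries. Its unadjusted limma p was 0.0535 without Site #1 replicate 1, 0.0635 without Site #1 replicate 2 and 0.0533 without Site #3 replicate 5. Between Site #2 and Site #3, Fos alone passed, 1 of 7 against 1.05% of all genes. There 6 of 7 had an unadjusted p under 0.05 with the higher mean at Site #3, against 7.24% of all genes, Egr1 being the exception. With all 17 libraries in one fit, Site #3 differed from the mean of Sites #1 and #2 in Fos and Fosb, 2 of 7 against 0.768% of all genes. All 7 had an unadjusted p under 0.05 in that direction, against 6.08%. The median difference over the 7 genes was 0.07 for Site #2 minus Site #1, 0.35 for Site #3 minus Site #1 and 0.25 for Site #3 minus Site #2, while the median over all genes tested was 0.00 in each. The comparisons with Site #3 share its 6 libraries, and each comparison with the same partner site shares those libraries as well.

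**Figure D1:**
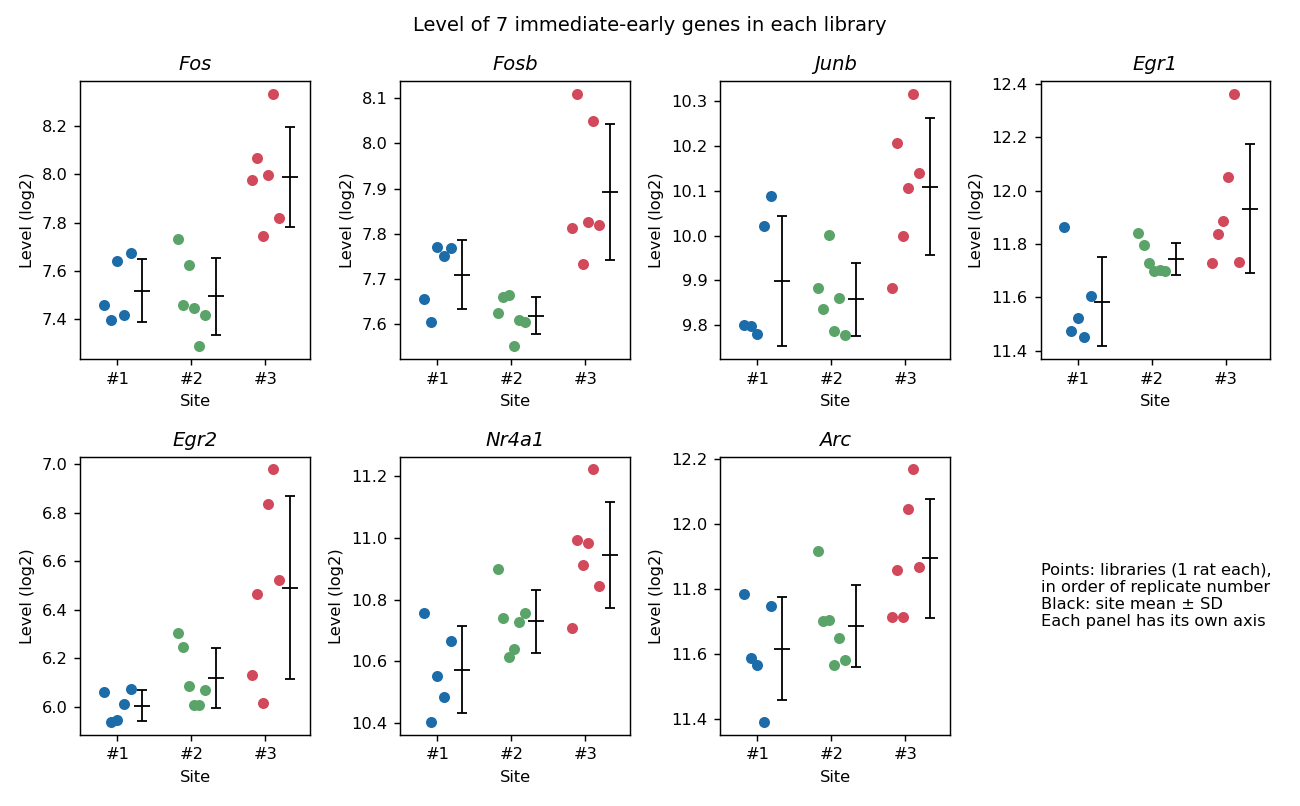
Level of each gene on the deposited log2 scale (vertical axis, its own range in each panel) by site (horizontal axis); points are libraries of 1 rat each, and the black bars are the site mean ± SD. The 6 Site #3 libraries of Fos lie between 7.74 and 8.34, above every library of the other sites, whereas Egr1 and Arc overlap between all sites.

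Fos (ENSRNOG00000008015), the AP-1 subunit most often used as a marker of neuronal activity, had the clearest separation. Its levels at Site #1 were 7.46, 7.40, 7.64, 7.42 and 7.68 in replicates 1 to 5. At Site #2 the lowest, median and highest levels were 7.29, 7.45 and 7.73, and at Site #3 they were 7.74, 7.99 and 8.34. Every Site #3 library was above every library of Sites #1 and #2, although the gap to the highest of them, Site #2 replicate 1, was only 0.012. Among all genes, 0.587% were higher at Site #3 than at Site #1 without overlap, 0.931% higher than at Site #2, and 0.172% higher than at both. The Site #3 mean was 1.41 times that of Site #2, a log2 difference of 0.50 (SE 0.098, limma with Benjamini-Hochberg adjustment, adjusted p = 0.0352). Against Site #1 the log2 difference was 0.47 (SE 0.098), with an adjusted p of 0.138. Against both sites together it was 0.49 (SE 0.082, adjusted p = 0.00930), and this call remained without any single library (adjusted p from 0.00596 to 0.0296). The call against Site #2 was less stable. It remained without Site #2 replicate 1 (0.0302) or Site #3 replicate 3 (0.0354), and the adjusted p lay between 0.0522 and 0.0811 without any one of Site #2 replicates 2 to 6 or Site #3 replicates 1, 2, 4, 5 and 6. Between Sites #1 and #2 the Fos means of 7.52 and 7.49 differed by less than the SD of either site.

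Fosb (ENSRNOG00000046667) encodes a Fos relative, of which a truncated form accumulates with repeated stimulation; levels here were per gene and do not separate the forms. At Site #1 its levels were 7.65, 7.60, 7.77, 7.75 and 7.77. The lowest, median and highest were 7.55, 7.62 and 7.66 at Site #2 and 7.73, 7.82 and 8.11 at Site #3. All 6 Site #3 libraries were above all of Site #2, and 5 of 6 were above all of Site #1. The log2 difference of Site #3 was 0.27 from Site #2 (SE 0.061, adjusted p = 0.0550) and 0.18 from Site #1 (SE 0.070, adjusted p = 0.504). Against both sites together it was 0.23 (SE 0.051, adjusted p = 0.0462). This call remained without Site #1 replicate 5 (0.0496) or Site #3 replicate 3 (0.0323), and without any one of the other 15 libraries the adjusted p lay between 0.0532 and 0.116.

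Junb (ENSRNOG00000042838), an AP-1 partner of the Fos proteins, had levels of 9.80, 9.80, 9.78, 10.02 and 10.09 at Site #1. The lowest, median and highest were 9.78, 9.85 and 10.002 at Site #2 and 9.88, 10.12 and 10.32 at Site #3. The sites overlapped, with 4 of 6 Site #3 libraries above all libraries of the other sites. The log2 difference of Site #3 was 0.25 from Site #2 (SE 0.066, adjusted p = 0.0885) and 0.21 from Site #1 (SE 0.083, adjusted p = 0.513). Without Site #3 replicate 1 the adjusted p against Site #2 was 0.0455. Without any other single library it stayed above 0.05, up to 0.180. Against both sites together the log2 difference was 0.23 (SE 0.062, adjusted p = 0.0950).

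Egr1 (ENSRNOG00000019422), also known as Zif268 and used widely as a marker of hippocampal plasticity, had levels of 11.86, 11.47, 11.52, 11.45 and 11.61 at Site #1. The lowest, median and highest were 11.70, 11.72 and 11.84 at Site #2 and 11.73, 11.86 and 12.36 at Site #3. Site #1 replicate 1 stood above the other rats of its site, Site #2 was tight, and 3 of 6 Site #3 libraries were above every library of the other sites. The log2 difference of Site #3 was 0.35 from Site #1 (SE 0.115, adjusted p = 0.399) and 0.19 from Site #2 (SE 0.093, adjusted p = 0.372). Against both sites together it was 0.27 (SE 0.082, adjusted p = 0.148). Site #2 minus Site #1 gave 0.16 (SE 0.068, adjusted p = 0.705).

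Egr2 (ENSRNOG00000000640), known as Krox20 and also required for myelination by Schwann cells in peripheral nerve, had the widest range at Site #3. At Site #1 its levels were 6.06, 5.94, 5.95, 6.01 and 6.07, and at Site #2 the lowest, median and highest were 6.01, 6.08 and 6.30. At Site #3 the libraries of replicates 1 to 6 had 6.13, 6.47, 6.01, 6.84, 6.98 and 6.52. Replicates 1 and 3 of Site #3 were thus within the range of Site #2, and the other 4 were above every library of the other sites. The log2 difference of Site #3 was 0.49 from Site #1 (SE 0.155, adjusted p = 0.375) and 0.37 from Site #2 (SE 0.146, adjusted p = 0.2497). Against both together it was 0.43 (SE 0.113, adjusted p = 0.0881), nearly as large as for Fos but with the larger error, and 0.52 without Site #3 replicate 3 (adjusted p = 0.0323).

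Nr4a1 (ENSRNOG00000007607), also called Nur77, had levels of 10.76, 10.40, 10.55, 10.48 and 10.67 at Site #1. The lowest, median and highest were 10.61, 10.73 and 10.90 at Site #2 and 10.71, 10.95 and 11.22 at Site #3. At Site #3, 5 of 6 libraries were above all of Site #1 and 4 of 6 above all of Site #2. The log2 difference of Site #3 was 0.37 from Site #1 (SE 0.087, adjusted p = 0.203) and 0.21 from Site #2 (SE 0.075, adjusted p = 0.194). Against both together it was 0.29 (SE 0.067, adjusted p = 0.0525). The adjusted p was 0.0436 without Site #1 replicate 1, 0.0386 without Site #2 replicate 1 and 0.0301 without Site #3 replicate 1. Without any other single library it stayed above 0.05, up to 0.114.

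Arc (ENSRNOG00000043465), whose mRNA is carried into dendrites of active neurons, overlapped between all 3 sites. At Site #1 its levels were 11.78, 11.59, 11.57, 11.39 and 11.75. The lowest, median and highest were 11.56, 11.67 and 11.92 at Site #2 and 11.71, 11.86 and 12.17 at Site #3. In 2 of 6 libraries, Site #3 replicates 4 and 5, Arc was above every library of the other sites. The log2 difference of Site #3 was 0.28 from Site #1 (SE 0.094, adjusted p = 0.414) and 0.21 from Site #2 (SE 0.082, adjusted p = 0.253). Against both sites together it was 0.24 (SE 0.074, adjusted p = 0.149).

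**Figure D2:**
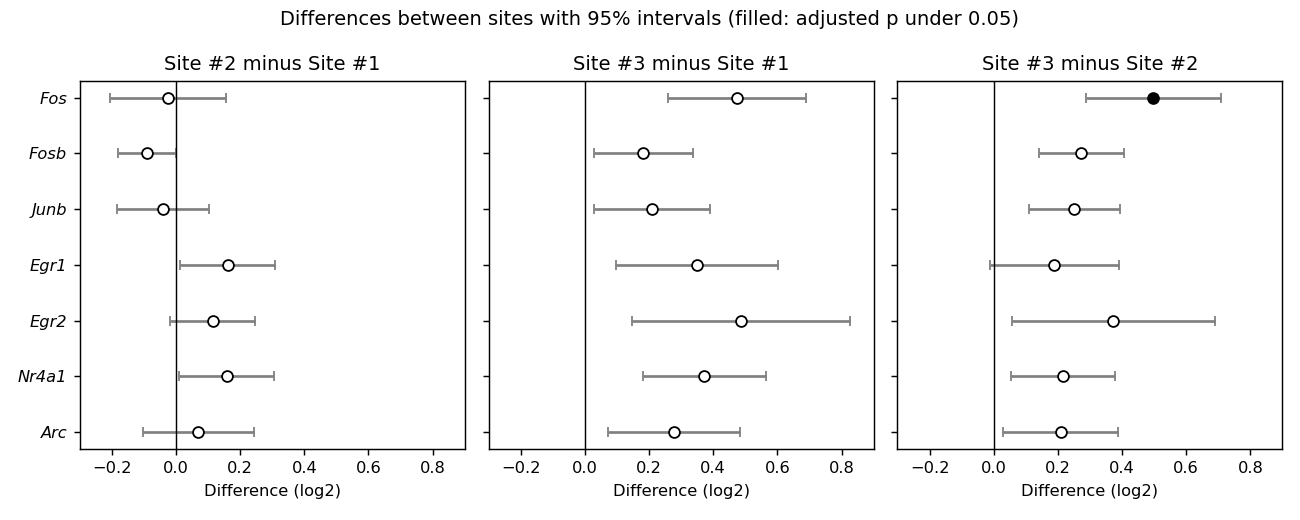
Log2 difference between sites (horizontal axis) for each gene (vertical axis) with its 95% interval from limma; filled circles had an adjusted p under 0.05 over all genes tested. Only Fos in Site #3 minus Site #2, at 0.50, is filled; all 14 differences from Site #3 lie above 0, and the interval of Egr1 in Site #3 minus Site #2 includes 0.

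The order of Sites #1 and #2 was not the same for all genes. The AP-1 subunits Fos, Fosb and Junb had the lower mean at Site #2, while Egr1, Egr2, Nr4a1 and Arc had the lower mean at Site #1. None of these differences passed the test. The largest in either direction for Site #2 minus Site #1 were 0.16 for Egr1 and Nr4a1 and -0.09 for Fosb, and the direction for Fos and Junb depended on single libraries. Fos was 0.01 higher at Site #2 without Site #1 replicate 3, and 0.02 higher without Site #1 replicate 5 or Site #2 replicate 5. Junb was 0.01 higher at Site #2 without Site #1 replicate 5.

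The spread between rats of a site was above the median gene for all 7 genes when pooled over sites, though not at each site. The SD pooled within sites was 0.24 for Egr2, above that of 97.0% of the 13679 genes that averaged 1 or more CPM (counts scaled to a fixed library total, back-transformed from the log2 values), and 0.17 for both Egr1 and Fos, above 91.5% and 90.8%. It was 0.16 for Arc (above 88.2%), 0.14 for Nr4a1 (84.0%), 0.13 for Junb (79.6%) and 0.10 for Fosb (62.6%), with a median over genes of 0.089. The share of the sum of squares between sites ran from 40.7% for Arc to 69.1% for Fos, against a median of 15.2% over genes.

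All 7 genes had their largest SD at Site #3, which held the largest SD of the 3 sites for 20.9% of genes. The Site #3 SD was 0.38 for Egr2, 0.24 for Egr1 and 0.21 for Fos, and over the 7 genes it was above that of 90.0% to 99.1% of genes at that site. At Site #2 the SDs of Fosb (0.04), Egr1 (0.06) and Junb (0.08) were above 6.42%, 22.1% and 43.3% of genes, and at Site #1 those of Egr2 (0.06) and Fosb (0.08) were above 25.4% and 37.4%. The pooled SD of Egr2 thus came mainly from Site #3. The larger SD at Site #3 depended on replicate 5. Without it only Fosb and Egr2 had their largest SD at Site #3, 2 of 7 against 20.2% of genes, and the Site #3 SD of Egr1 was 0.13.

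Single libraries were high or low in several of these genes at once. Site #3 replicate 5 had the highest level of all 17 libraries in 6 of the 7 genes, and for Fosb the highest was Site #3 replicate 2. Averaged over the 7 genes, Site #3 replicate 5 was 0.51 above the mean of all libraries, replicate 4 was 0.29 above and replicate 2 was 0.24 above. These 3 libraries were among the 6 highest in every gene. Replicates 1 and 3 of Site #3 averaged 0.01 and 0.02, from -0.09 to 0.30 and from -0.20 to 0.15 over the genes. At the other end, Site #1 replicate 2 was 0.24 below the mean and was below it in all 7 genes, as were Site #2 replicates 4, 5 and 6. Site #2 replicate 1, at 0.05, was the only library of Sites #1 and #2 with an average above the mean.

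**Figure D3:**
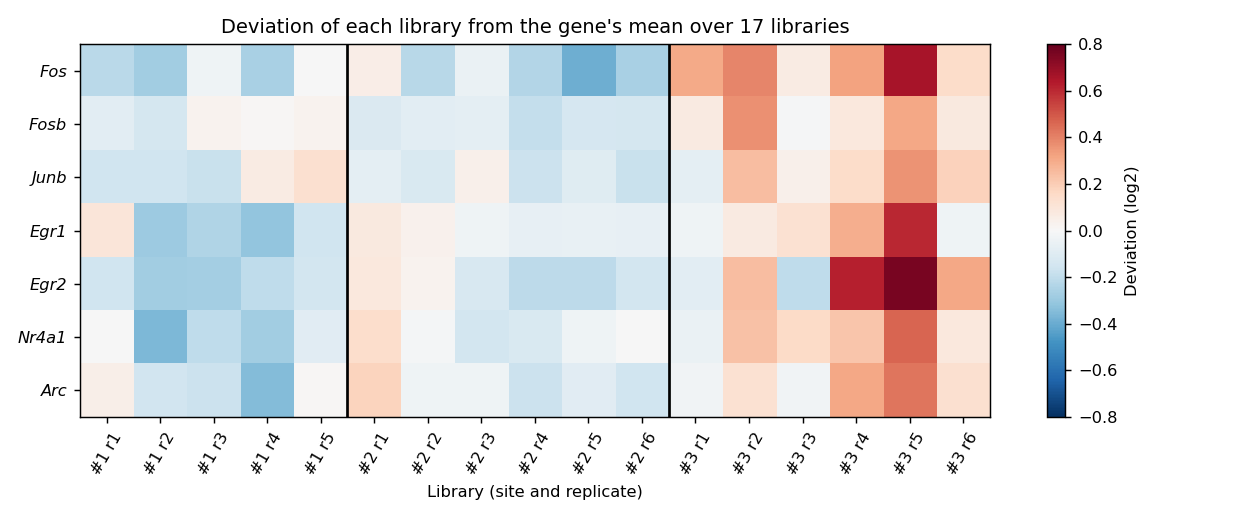
Deviation of each library (columns, by site and replicate, sites divided by black lines) from the gene's mean over 17 libraries (rows, log2 scale, red above and blue below). Site #3 replicates 2, 4 and 5 are above the mean in all 7 genes, and replicates 1 and 3 of the same site average 0.01 and 0.02 over the genes, with single deviations as high as 0.30 (replicate 1) and as low as -0.20 (replicate 3).

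To ask whether the genes moved together among rats of the same site, the site means were subtracted and correlations were taken over the 17 libraries for all 21 pairs, with p values from 100000 permutations within sites, two-sided and adjusted over the 21 pairs. All 21 Pearson correlations were positive, with a median r of 0.61 and a range from 0.29 (Fosb and Egr1) to 0.86 (Egr1 and Nr4a1). By permutation, 11 pairs had an adjusted p under 0.05, and 8 did with Spearman's rho. The pairs share libraries and normalization. Over all pairs of genes averaging 1 CPM or more, the median r was -0.005, and 4.27% of pairs had an r of at least the median of the 7 genes.

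The closest relations joined Egr1, Egr2, Nr4a1 and Arc. Egr1 and Nr4a1 had r = 0.86 and rho = 0.77 (permutation p = 5e-05 and 0.00081, adjusted 0.000525 and 0.00567). Egr1 and Arc had r = 0.81 and rho = 0.78 (permutation p = 0.00016 and 0.00058, adjusted 0.00112 and 0.00567). For Egr2 and Arc, r was 0.80 and rho was 0.80 (permutation p = 5e-05 and 0.00064, adjusted 0.000525 and 0.00567). These 4 genes had a median r of 0.80 over their 6 pairs. The AP-1 subunits had a median of 0.67 over 3 pairs, with Fos and Fosb at r = 0.67 and rho = 0.68 (permutation p = 0.00765 and 0.00603, adjusted 0.0254 and 0.0253). Between the AP-1 subunits and the other 4 genes the median was 0.48 over 12 pairs, with a range from 0.29 to 0.67. The highest of these, Fos and Arc, was as high as the lowest pair within the 4 genes, Egr2 and Nr4a1 (r = 0.67 for both). These sets were drawn with the values known, and the difference between them was not tested.

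Part of the correlation rested on a few libraries. Without the 2 libraries farthest from the median of the first gene of each pair, of which Site #3 replicate 5 was always 1, the median r was 0.37 and the range was -0.16 to 0.74. The site means subtracted for these values were those of all 17 libraries, not taken again without the 2. The 6 pairs within Egr1, Egr2, Nr4a1 and Arc then had r from 0.60 to 0.74. Fos and Fosb had 0.64, whereas Fos and Egr1 went from 0.55 to 0.18 and Junb and Egr1 from 0.35 to -0.16, so the relations of those last pairs rested on the libraries left out. Without Site #3 replicate 5 alone, the median r was 0.42 and 4 pairs had an adjusted p under 0.05: Egr1 with Nr4a1, Egr1 with Arc, Egr2 with Arc, and Nr4a1 with Arc. The count was 5 without Site #2 replicate 1 and 6 without Site #3 replicate 3. Within Site #2, 20 of 21 correlations over 6 libraries were positive with a median of 0.56, and Junb and Nr4a1 had -0.21. Within Site #3, all 21 were positive with a median of 0.76.

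**Figure D4:**
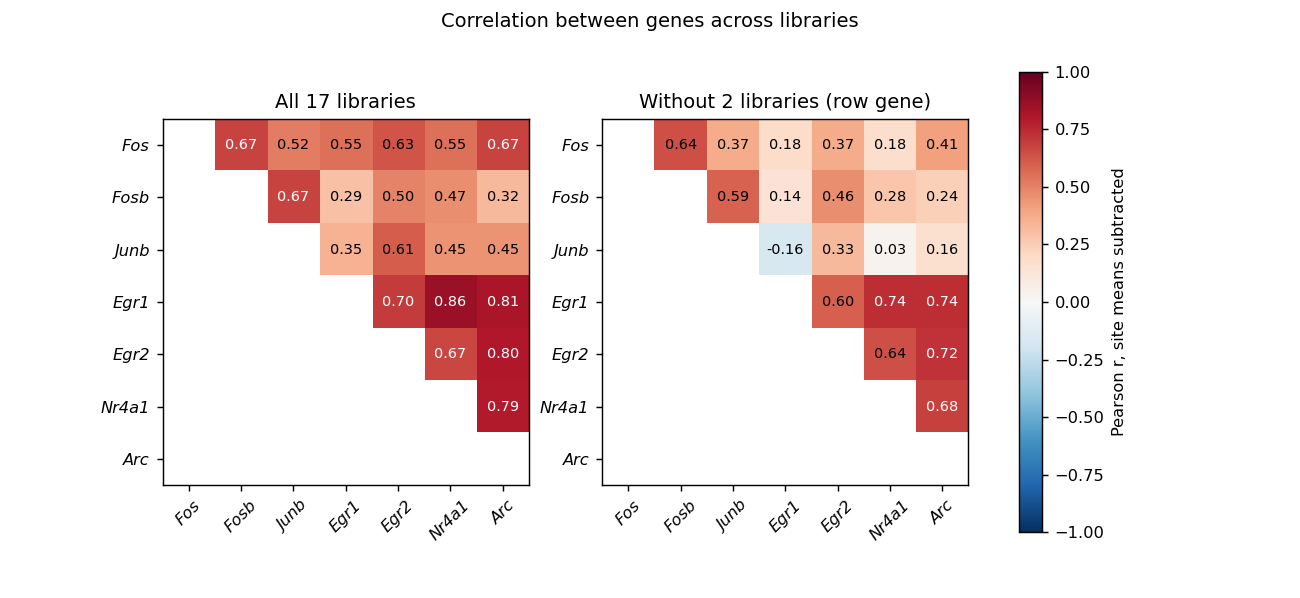
Pearson r between genes (rows and columns) over the libraries after subtraction of site means, for all 17 libraries (left) and without the 2 libraries farthest from the median of the row gene (right). In both panels the site means were those of all 17 libraries. The block of Egr1, Egr2, Nr4a1 and Arc runs from 0.60 to 0.74 on the right, and the correlations of Fos and Junb with Egr1 drop to 0.18 and -0.16.

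Ranked by r among 13678 genes, the members were often near each other. Of the 42 ordered pairs, 23 had the other gene among the top 100 and 25 had it in the top 1% of genes. Egr1 and Nr4a1 each ranked first for the other, and the 3 genes most like Arc were Egr1, Egr2 and Nr4a1. Among the 910 genes with a symbol at hand, those most like Fos were Frmd6 (r = 0.76), Axin2 (0.72) and Dusp1 (0.71), a phosphatase of MAP kinases and itself an immediate-early gene. Those most like Fosb were Cux2 (0.71), Prkg2 (0.68) and Dusp1 (0.67), and those most like Junb were Vwa1 (0.79), Cldn10 (0.73) and Fam109a (0.71). Beside the other members, the list gave Mepe (0.73) for Egr1 and Pard3 (0.77) for Nr4a1. The 3 most like Egr2 were Arc, Egr1 and Nr4a1. These likenesses are over 17 libraries with site means subtracted. They include Site #3 replicate 5, on which part of the correlation rested. Most genes had no symbol and could not be named, and the symbols at hand were mainly those of genes with differential methylation between sites.

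Other genes tied to the activity response, among them feedback inhibitors, effectors and upstream receptors, could be followed for 13 of 52 listed symbols. Symbols came from the study's lists of cell-type markers and of genes with differential methylation between Site #1 and another site. The 13 genes are therefore not a random part of the 52. Of these, 0 passed between Site #1 and Site #2 (0 at an unadjusted p under 0.05), 0 between Site #1 and Site #3, and 0 for Site #3 against Sites #1 and #2, while 1 passed between Site #2 and Site #3, against 1.05% of all genes. That gene was Dusp5, which encodes a nuclear phosphatase of ERK, with means of 9.02 and 9.20 and a log2 difference of 0.19 (SE 0.039, adjusted p = 0.0460). At an unadjusted p under 0.05, 3 of 13 had the higher mean at Site #3 in each comparison with it and 0 had the lower, against the 3.76%, 7.24% and 6.08% of all genes given above for Site #1, Site #2 and both. They were Klf2, Dusp5 and Errfi1 against Site #1 and against both sites, and Klf2, Dusp5 and Zfp36 against Site #2. The largest absolute log2 difference was 0.20 for Sgk1, a glucocorticoid-induced kinase, in Site #2 minus Site #1 (adjusted p = 0.744). It was 0.26 for Dusp6, an ERK phosphatase, in Site #3 minus Site #1 (adjusted p = 0.670), and 0.21 for Dusp6 against both sites (adjusted p = 0.457).

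The immediate-early transcription factor Klf2 had a log2 difference of 0.22 from Site #1 and 0.17 from Site #2 at Site #3. Dusp1, the phosphatase named above as like Fos, had 0.10 and 0.04. The activity-regulated effectors Gadd45b, Gadd45g and Rheb lay between -0.09 and 0.01 at Site #3 against either site, and the glutamate receptor subunits Grin1, Grin2a and Grin2b between -0.05 and 0.16. The median difference over the 13 genes was 0.10 from Site #1 and 0.06 from Site #2, below the 0.35 and 0.25 of the 7 genes. The 2 sets are unlike, since the 13 include the receptor subunits, and only Klf2 was listed as an immediate-early transcription factor. The medians thus do not measure the wider activity response.

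Markers of neurons, astrocytes, microglia and oligodendrocytes were present in all libraries, and the lowest of the 16 marker values was 6.07. In limma, 0 of 16 markers passed in any comparison, while 5 had an unadjusted p under 0.05 in each pair of sites and 6 did for Site #3 against both other sites. The shares of all genes were 6.74% (Site #1 vs Site #2), 8.17% (Site #1 vs Site #3), 14.8% (Site #2 vs Site #3) and 12% (Site #3 vs both). In Site #2 minus Site #1 all 5 were lower. At Site #3, 3 were higher and 2 lower than at Site #1, and 4 higher and 1 lower than at Site #2. Against both, 3 were higher and 3 lower. Those lower in any of these comparisons were Pfkp and Gad2 of neurons and Aldh1l1 of astrocytes. Those higher were C1qa, Csf1r and Tmem119 of microglia and Gja1 and Gfap of astrocytes. The astrocyte markers thus went both ways, with Aldh1l1 at -0.18 and Gja1 at 0.17 from Site #1. On the log2 scale, the summed level of 4 neuronal markers was 16.11 to 16.22 at Site #1, 16.03 to 16.12 at Site #2 and 16.01 to 16.11 at Site #3. That of 6 microglial markers was 12.83 to 13.10, 12.71 to 13.03 and 13.01 to 13.14, and that of 5 astrocyte markers was 16.48 to 16.65, 16.37 to 16.56 and 16.48 to 16.69, in the same order. The largest marker difference between Site #2 and Site #3 was 0.27 for C1qa, a complement gene of microglia (adjusted p = 0.0618). The neuronal sum at Site #3 lay no higher than at the other sites, where the immediate-early genes were lower, and the part of cell composition in the differences was not tested. The oligodendrocyte marker Cers2 had 11.20 to 11.41, 11.23 to 11.48 and 11.23 to 11.45.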

How the data were processed

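From reads cleaned by Trimmomatic, mapped by HISAT2 to rn6 and counted by featureCounts, the authors deposited 1 normalized log2 value per Ensembl gene and library; the versions and the normalization step are not given in the sources used here. Values ran from -2.28 to 20.22. Of 32494 genes, 9830 at 0 in all 17 libraries were left out, leaving 22664. Each pair of sites was fitted alone with limma (lmFit, eBayes with trend), and Site #3 against Sites #1 and #2 with all libraries; p values were two-sided and Benjamini-Hochberg adjusted, with a threshold of 0.05. CPM, used for a minimum mean of 1, was back-transformed. Symbols other than the 7 genes came from the study's list of cell-type markers and its lists of differentially methylated genes. The latter were those for Site #1 vs Site #2 and Site #1 vs Site #3. On simulated data with 200 of 22664 genes shifted by 0.5, limma recovered 93% (Site #1 vs Site #3), 94% (Site #2 vs Site #3) and 96% (Site #3 vs Sites #1 and #2). For a shift of 0.25 it recovered 52.5%, 57% and 75.5%. Unshifted genes called were 12, 10 and 10 for 0.5, and 4, 8 and 6 for 0.25. The shifted genes were drawn at random from those averaging 1 CPM or more, with independent normal noise. The 7 genes had pooled SDs of 0.10 to 0.24, above the median of 0.089. The percentages therefore do not give the power for these 7 genes. Each laboratory contributed 1 cohort, so p values cover the spread between its rats only.

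Members and lists were chosen with earlier results of these data known. Named were all 7 genes, related genes past the threshold or with the largest difference per comparison, and the 3 most correlated genes with a symbol; the other paired related genes are given by range. Markers C1qa, Csf1r, Tmem119, Gja1, Gfap, Aldh1l1, Pfkp, Gad2 and Cers2 were named after their values were seen. The same holds for Klf2, Dusp1, Errfi1 and Zfp36 with their values. The software was limma 3.58.1 in R 4.3.3, and scipy 1.17.1, pandas 2.3.3, numpy 2.4.6 and matplotlib 3.10.9 in Python 3.11.15.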

Additional observations from a re-analysis of the deposited data

How the results depend on the processing

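The values hold no counts, so no counting error can be given. Fos in Site #3 vs Sites #1 and #2 kept its call under every alternative run, with log2 differences from 0.42 to 0.53. Fos in Site #2 vs Site #3 lost its call without a filter (adjusted p = 0.0742), under the replicate block (0.110) and in 10 of 12 leave-one-out fits. Over 28 log2 differences and their alternatives, 556 of 602 values kept direction and side of the threshold, 31 lost the call, 11 gained one and 4 reversed. The reversed ones were for Site #1 vs Site #2: Fos without Site #1 replicate 3 (0.00696), Site #1 replicate 5 (0.0153) or Site #2 replicate 5 (0.0174), and Junb without Site #1 replicate 5 (0.00724); over all single libraries left out, Fos ran from -0.072 to 0.017 and Junb from -0.070 to 0.00724. The correlation of Fosb and Egr1 reversed to -0.058 without Site #3 replicate 5, with a highest value of 0.51 without Site #3 replicate 2. The cause was not tested.

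With only genes of at least 1 CPM, 3 of the 7 genes and 482 of all genes passed in Site #2 vs Site #3, against 1 and 239. With no filter these were 0 and 158 there, and 1 and 105 in Site #3 vs Sites #1 and #2, against 2 and 174. All 17 libraries in one fit gave 2 of the 7 genes in Site #2 vs Site #3 and 36 of all genes in Site #1 vs Site #3, against 23. Array weights gave 4 of the 7 and 339 in Site #3 vs Sites #1 and #2, where no trend and quantile normalization each gave 1 of the 7. Median centring gave 73 genes higher and 160 lower at Site #3 in Site #2 vs Site #3 (120 and 119 as reported) and 63 and 83 in Site #3 vs Sites #1 and #2 (91 and 83 as reported), for which quantile normalization gave 74 and 94; in Site #1 vs Site #3 it gave 12 and 18, and no trend or quantile normalization 8 and 14, against 11 and 12. With site means kept, the median correlation was 0.78 and 21 pairs passed.

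Leaving out single libraries gave 0 to 1, 9 to 30, 81 to 333 and 78 to 224 genes in Site #1 vs Site #2, Site #1 vs Site #3, Site #2 vs Site #3 and Site #3 vs Sites #1 and #2, and 0 to 1 and 1 to 3 of the 7 genes in the last 2. The median correlation was 0.42 to 0.67 and the pairs that passed were 4 to 14.

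The sites share replicate numbers, but same-numbered rats were not alike: their deviations correlated at -0.003, -0.171 and 0.030 on average in Site #1 vs Site #2, Site #1 vs Site #3 and Site #2 vs Site #3, and 0 of 5, 0 of 5 and 1 of 6 were closest to their own number. With the replicate block, 0 genes passed in Site #1 vs Site #3, 43 in Site #2 vs Site #3 with 0 of the 7, and 62 in Site #3 vs Sites #1 and #2 with 1 of the 7.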
